A study of Rattus norvegicus with 8 samples.

Results

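The ductus arteriosus (DA) of newborn Brown-Norway (BN) rats was compared with that of newborn F344 rats, another inbred strain. The comparison rests on 4 of the 8 Affymetrix Rat Gene 1.0 ST arrays of the series, 2 from each strain. All DA and aorta (AO) tissue was taken 1 h after birth from animals of these inbred strains, with no treatment named in the labels. Tissue was pooled before RNA was extracted, and 150 ng of total RNA was labelled for each array; the number of neonates in a pool is not known here. The members of the comparison are the 13223 genes with a single symbol that remain of 14506 after 1283 olfactory, vomeronasal, taste and trace amine receptor genes were left out. Each gene was read from 1 probe set, the one with the highest mean over the 8 arrays.

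The DA joins the pulmonary artery to the aorta before birth and closes in the hours and days after it. Oxygen, which acts through potassium and calcium channels of the smooth muscle, drives its constriction, whereas prostaglandin E2, nitric oxide and the open ATP-sensitive potassium channel relax it. Lasting closure needs a remodelled wall, with a thickened intima, hyaluronan-rich matrix and interrupted elastic fibres. The BN rat has been studied as an inbred strain in which the vessel is prone to remain patent, and F344 as one in which it closes.

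Values are log2, so that a difference of 1 is 2-fold, and a gene is called where the Benjamini-Hochberg adjusted p of limma was under 0.05. Differences are BN minus F344 in the DA unless the aorta is named, with the standard error (SE) of the fit. The labels number 2 replicates per group without saying that they came from separate animals or litters, so the p-values reflect the spread between these samples alone, which may be technical. Array probes are fixed sequences, and a strain difference in probe match cannot be told apart from one in transcript amount.

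The tissue on the arrays carried the markers of a muscular vessel in both strains. The 6 tested markers of vascular smooth muscle, among them Acta2, Myh11 and Myocd, had means of 12.05 and 11.91 on the F344 DA arrays and of 11.96 and 11.81 on the BN DA arrays, and 0 were called. Tfap2b, a transcription factor gene that marks the DA against the aorta, lay at 9.90 and 9.92 in F344 DA and at 9.66 and 9.25 in BN DA, against 5.51 to 6.75 on the 4 aorta arrays. The BN DA arrays differed most from each other: their replicate difference had an SD of 0.339 over genes with 177 genes at least 2-fold apart, where the other groups had SDs of 0.183 to 0.251 and 11 to 16 such genes. The receptor genes left out had medians of 5.97 and 6.04 on the F344 DA arrays and 5.29 and 5.61 on the BN DA arrays. On the aorta arrays these medians were 5.04 and 5.17 in F344 and 4.93 and 5.09 in BN. The upper quartile of the members was 8.82 and 8.76 on the F344 DA arrays and 8.89 to 9.02 on all others. The F344 DA arrays thus had the highest receptor medians and the lowest upper quartiles. The part of this in genes where F344 DA was the low group was not tested. The receptor genes had a median DA difference of -0.48, and in the same fit 209 of the 1283 were called lower and 1 higher. Whether a gene near the receptor medians was above background was not tested, so fitted differences of such genes are not exact folds. Among them are Zfp347, Prox1, Il2rg, Eqtn and Bmp5, whose F344 DA values lie below the F344 DA receptor medians. Cd36 (6.08 and 5.58) and Trpm8 (5.78 and 6.17) each had 1 F344 DA value below the median of its array.

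In all, 447 of 13223 genes were called (3.38%), 352 higher in BN (2.66%) and 95 lower (0.718%), all with BN arrays lying wholly above or below the F344 arrays. Such a separation of 2 arrays from 2 was found in 6335 genes (47.9%) and is by itself common. At least 2-fold differences were called for 77 genes higher and 15 lower. Counts of called genes in the lists below are to be read against the 3.38% of all members. The median difference was 0.75 for genes called higher and -0.74 for those called lower, against 0.02 over all members, where brighter genes had a median of 0.11 and dimmer genes one of -0.07. The excess of higher over lower calls holds only for the members, since calls among the receptor genes left out were nearly all lower, and it depended on the scaling. It was 307 to 142 after repeated quantile normalization, 207 to 110 after cyclic loess, and 118 to 160 after centring on the brighter genes, which moved the median of all members to -0.12. Without F344 DA replicate 1 or 2 the fit called 17 and 13 genes, without BN DA replicate 1 or 2 it called 807 and 710, and without either F344 AO array it called 194. In these fits the lone array is assumed to vary like the other groups. Of the 86 named genes called, 6 kept their call without either F344 DA array (Nupr1, Postn, Zfp347, Ppargc1a, Itgbl1 and Itga4), Prim1 kept it without replicate 1, and Kcnmb1, Trpm8 and Tnfrsf19 kept it without replicate 2. The calls of the rest of the 86 were lost when either F344 DA array was left out. Without either F344 AO array 50 of the 86 were still called, without either BN AO array 64, with array weights 56, and 26 in a fit of the 4 DA arrays alone.

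**Figure D1:**
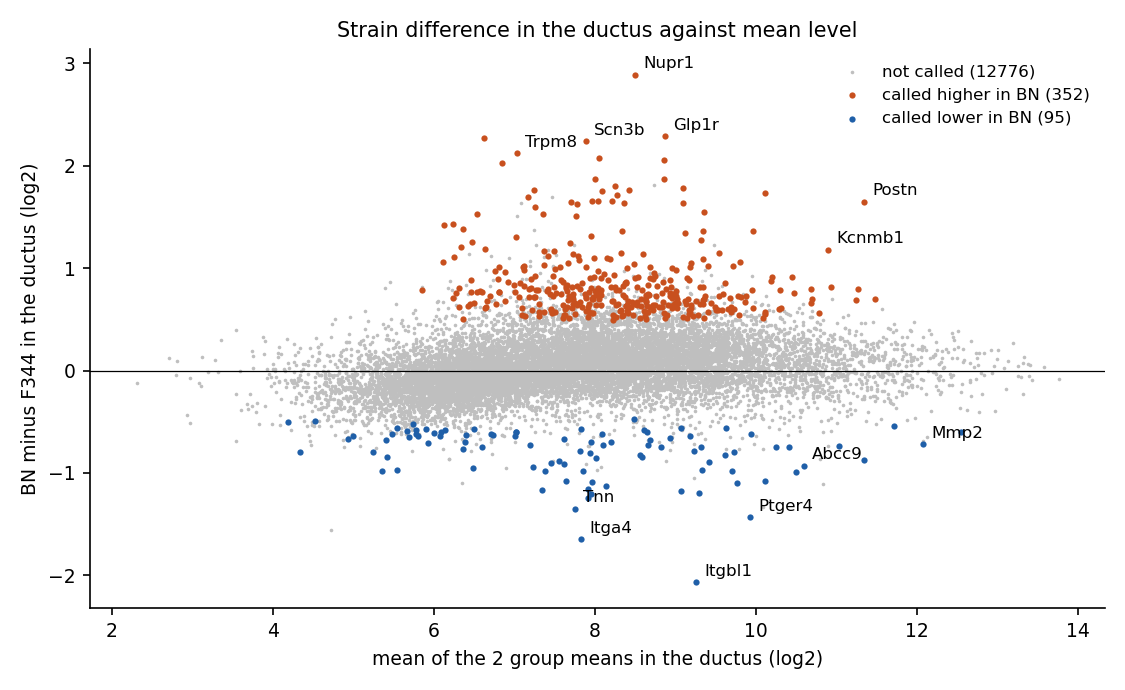
Each point is 1 of 13223 genes, placed by the mean of its 2 group means in the DA (x, log2) and its BN minus F344 difference (y, log2); coloured points are the 352 genes called higher and the 95 called lower in BN. Differences reach 2.89 (Nupr1) and -2.07 (Itgbl1).

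The largest difference of all belonged to Nupr1, a stress-induced regulator of transcription. Its level was 7.09 and 7.02 on the F344 DA arrays and 10.11 and 9.77 on the BN DA arrays, a 7.39-fold difference (log2 difference 2.89 ± 0.20 SE, limma adjusted p = 0.00144). The F344 DA arrays stood apart from all others, since the F344 aorta was at 9.93 and 9.74 and the BN aorta at 11.02 and 10.44. As the gene with the largest difference, its promoter is shown: the 250 bases before the annotated start in RefSeq (build GRCr8, an assembly of a BN rat), chr1:190645902-190646151 on the minus strand.

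Nupr1: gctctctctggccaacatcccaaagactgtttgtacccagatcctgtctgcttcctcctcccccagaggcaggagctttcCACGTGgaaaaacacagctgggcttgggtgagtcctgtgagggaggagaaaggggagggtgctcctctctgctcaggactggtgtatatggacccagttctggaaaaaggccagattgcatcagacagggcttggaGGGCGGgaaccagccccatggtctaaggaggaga

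Capitals mark the only matches to the motifs searched on both strands. CACGTG holds the core ACGTG of the hypoxia-inducible factor motif once on each strand, and GGGCGG is a GC box; the core TGACG of cyclic AMP response elements and the CArG box of serum response factor had no match. Over all 33469 RefSeq promoter windows of this length, 16.6% held ACGTG, 30.5% the GC box, 18.2% TGACG and 1.5% a CArG box, so these matches are common letters and are given as a description. Of the other genes of the integrated stress response 1 was called: Slc7a3, a transporter of cationic amino acids, was at 6.81 and 6.95 in F344 DA and 8.37 and 8.68 in BN DA (1.65 ± 0.18, adjusted p = 0.00591). The list had 2 of 23 genes higher (8.7%), 0 lower and a median of -0.05. Its central transcription factor gene Atf4 (-0.08) and the target genes Asns (0.12) and Trib3 (-0.21) were not called.

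Genes of the matrix and of cell adhesion gave some of the clearest separations, in both directions. Postn (periostin), a matricellular protein of remodelling tissue, lay at 10.61 and 10.43 in F344 DA and at 12.10 and 12.25 in BN DA (1.65 ± 0.12, adjusted p = 0.00144). The BN DA values came close to those of the F344 aorta (12.41 and 12.40), while F344 DA was the low group. Spp1 (osteopontin), a secreted adhesion protein, rose from 7.46 and 7.32 to 9.19 and 8.90 (1.66 ± 0.21, adjusted p = 0.00844). In the opposite direction, Itgbl1, which encodes an integrin beta-like protein, fell from 10.27 and 10.31 to 8.48 and 7.96 (-2.07 ± 0.18, adjusted p = 0.00193). Here BN DA was the low group, because both aortas lay between 9.85 and 10.43. Tnn (tenascin N), a matricellular glycoprotein, was at 8.42 and 8.43 in F344 DA and at 7.67 and 6.48 in BN DA (-1.35 ± 0.30, adjusted p = 0.0371, and 0.0562 after cyclic loess). Among matricellular and adhesive glycoproteins 2 of 14 were thus higher and 2 lower (28.6%, against 3.38% of all members), with a median of -0.24 that was -0.12 without BN DA replicate 2 and -0.38 after centring. Fn1 (fibronectin) had a difference of -0.23 ± 0.12 and was not called.

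Itga4, the alpha subunit of an integrin that binds fibronectin and VCAM, was the member of 14 tested integrins that was called. It was at 8.57 and 8.75 in F344 DA and at 6.93 and 7.08 in BN DA (-1.65 ± 0.14, adjusted p = 0.00193). The aorta showed a difference of the same size, from 9.18 and 9.25 in F344 to 7.39 and 7.68 in BN (-1.68, adjusted p = 0.00739).

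Proteoglycan genes also went both ways, 2 of 29 higher and 2 lower, with a median of 0.06. Acan (aggrecan), the large hyaluronan-binding proteoglycan of cartilage, was at 7.93 on both F344 DA arrays and at 9.12 and 10.48 on the BN DA arrays (1.87 ± 0.34, adjusted p = 0.0215). Of 12 cartilage markers Acan was the one called, the median was -0.18, and their mean was 7.08 and 7.16 in F344 DA and 7.0 and 7.44 in BN DA; Col2a1, the main collagen of cartilage, had a difference of -0.19. Epyc (epiphycan), a small leucine-rich proteoglycan, was at 10.64 and 10.68 in F344 DA and at 9.69 and 9.46 in BN DA (-1.08 ± 0.13, adjusted p = 0.00818). Epyc was lower still in the aortas, at 7.62 to 8.26. Hmmr, a hyaluronan receptor that also acts on the mitotic spindle, had a difference of 0.56 and Sdc4, a cell surface heparan sulfate proteoglycan, one of -0.56. The Hmmr call was lost without BN DA replicate 1 (adjusted p = 0.0594) and under each of the 3 scalings (0.0855 to 0.129), and the Sdc4 call without BN DA replicate 2 (0.0991). Has2, the hyaluronan synthase of the ductal intima, was at 7.76 and 7.83 in F344 against 8.11 and 8.98 in BN, which did not pass (0.75 ± 0.27, adjusted p = 0.135), although it did without BN DA replicate 1 (adjusted p = 0.0133). Vcan (versican) had a difference of 0.24 ± 0.14 and was not called.

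No elastic fibre gene was called among 21 tested, whose median was 0.04. Eln (elastin) had values of 13.40 and 13.56 in F344 against 13.46 and 13.32 in BN, which overlap (-0.09 ± 0.13, adjusted p = 0.702). The crosslinking enzyme gene Lox was at 12.34 and 12.28 in F344 against 12.57 and 12.65 in BN (0.30 ± 0.12, adjusted p = 0.165). Fbln1, a fibulin of the ductal intima, came nearest to the threshold, with 10.64 and 10.32 in F344 against 9.47 and 9.95 in BN (-0.77 ± 0.19, adjusted p = 0.0559); it passed under the 3 scalings (0.0327 to 0.0442) and without BN DA replicate 2 (0.016). By unadjusted p under 0.05, 2548 members differed, so a gene that missed the threshold is not shown to be alike in the strains.

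Of 19 collagen genes 0 were called, with 5 positive differences and a median of -0.18, which moved to -0.29 to -0.33 under the 3 scalings and to -0.09 without BN DA replicate 1. The genes of the major fibrillar collagens Col1a1, Col1a2 and Col3a1 had differences of -0.40, -0.39 and -0.42 (adjusted p = 0.151, 0.112 and 0.0964). Pcolce, an enhancer of procollagen processing, was called, falling from 10.77 and 10.81 to 10.12 and 9.97 (-0.75 ± 0.12, adjusted p = 0.0169), as 1 of 15 genes of collagen processing. In the aorta Pcolce was at 10.60 to 10.73 in both strains.

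Matrix proteases and their inhibitors had 1 of 30 genes higher and 2 lower, with a median of -0.04. Mmp2, a gelatinase, was at 12.51 and 12.35 in F344 DA and at 11.61 and 11.82 in BN DA (-0.72 ± 0.14, adjusted p = 0.0288). Adamts1, a protease that cleaves versican and aggrecan, was at 11.91 and 11.66 in F344 DA and at 11.16 and 10.66 in BN DA (-0.87 ± 0.18, adjusted p = 0.0336). The tissue inhibitor Timp3 was higher, by 0.87 ± 0.20 (adjusted p = 0.0464). Without BN DA replicate 1 the Mmp2 call was lost (adjusted p = 0.0568), without replicate 2 those of Adamts1 (0.0569) and Timp3 (0.0871), and the Timp3 call was lost under each scaling (0.0654 to 0.0853).

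**Figure D2:**
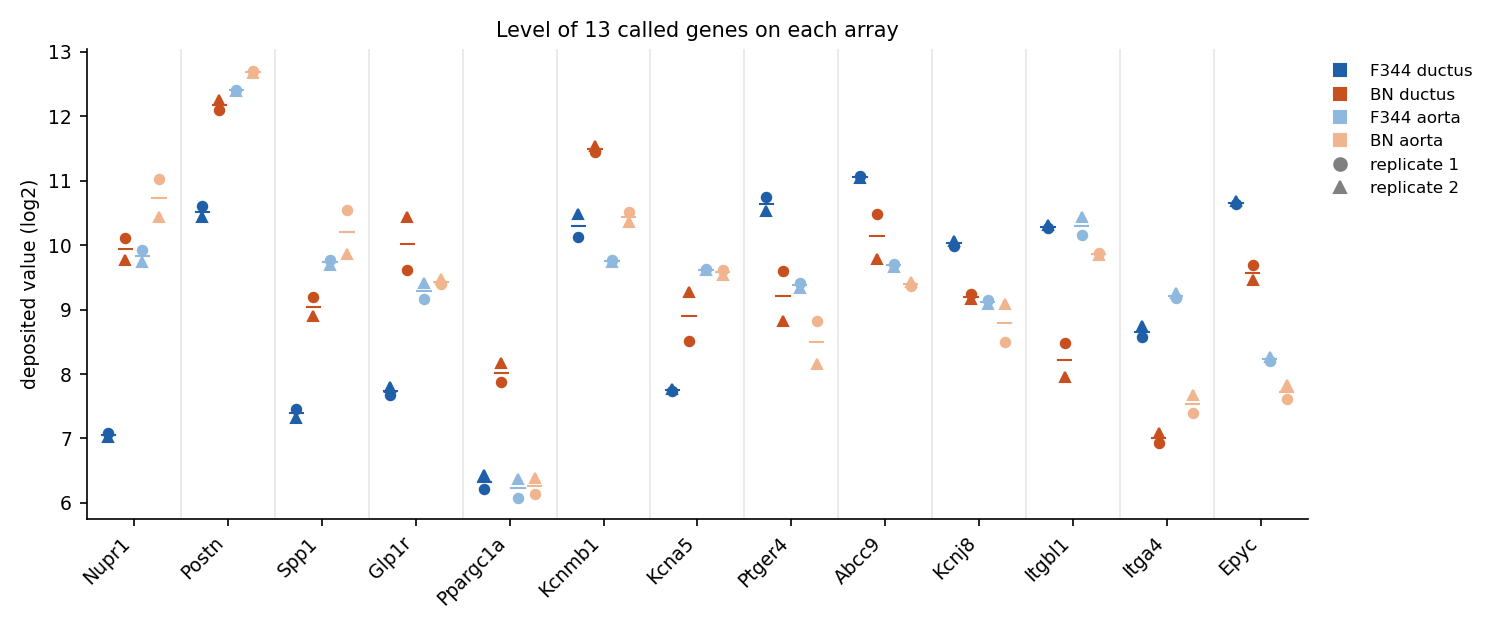
Points are the deposited log2 values (y) of 13 called genes (x) on each of the 8 arrays, coloured by strain and vessel; bars are means of 2 arrays. In the DA, Nupr1, Postn, Spp1, Glp1r, Ppargc1a, Kcnmb1 and Kcna5 lie higher on both BN arrays, and Ptger4, Abcc9, Kcnj8, Itgbl1, Itga4 and Epyc lie lower.

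Among prostaglandin genes one receptor was lower in BN. Ptger4 encodes EP4, the receptor through which prostaglandin E2 relaxes the DA. It lay at 10.75 and 10.53 in F344 DA and at 9.60 and 8.82 in BN DA (-1.43 ± 0.27, limma adjusted p = 0.0256). The call was kept under each scaling (0.0183 to 0.0203) but not in the 4 DA arrays alone (0.0528). It was also lost without either F344 DA array. Without BN DA replicate 1 or 2 the difference was -1.82 and -1.04. Both BN arrays were below both F344 arrays, and they differed from each other more than the F344 arrays did. The aorta values were 9.42 and 9.33 in F344 against 8.83 and 8.16 in BN (-0.88, adjusted p = 0.574). Of 8 prostanoid receptors Ptger4 was the one called, 1 had a positive difference and the median was -0.21, which became -0.05 without BN DA replicate 1 and -0.31, with 2 genes called lower, without replicate 2. Ptger3 (-0.43), Ptger2 (-0.18), the prostacyclin receptor gene Ptgir (-0.16) and the thromboxane receptor gene Tbxa2r (-0.23) were not called.

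Of 15 genes that make, carry or break down prostaglandins 1 was called and the median was 0.11. Pla2g4a, the cytosolic phospholipase that releases arachidonic acid, was at 7.70 and 7.52 in F344 DA and 8.49 and 8.28 in BN DA (0.78 ± 0.15, adjusted p = 0.0267). The cyclooxygenase genes Ptgs1 (0.46 ± 0.19, adjusted p = 0.183) and Ptgs2 (-0.27 ± 0.19, adjusted p = 0.453), the synthase gene Ptges (-0.04), the transporter gene Slco2a1 (-0.26) and the degrading enzyme gene Hpgd (0.49) did not pass; Ptgs1 did without BN DA replicate 2 (0.70, adjusted p = 0.0415). Downstream of the receptor, 1 of 25 genes of cyclic AMP enzymes and effectors was called (4%, near the 3.38% of all members). It was the phosphodiesterase gene Pde7a, at 0.54. This call was lost without either BN DA array (0.57 and 0.52) and under each scaling (limma adjusted p = 0.0641 to 0.116). Adcy6, an adenylyl cyclase studied in this vessel, had a difference of -0.42 ± 0.16 (adjusted p = 0.146). It was -0.62 without BN DA replicate 1, where it passed, and -0.23 without replicate 2.

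Potassium channel genes were called in both directions, 5 of 29 higher and 2 lower (24.1%, against 3.38% of all members), and the list's median was 0.01. The 2 lower genes encode the partners of the vascular ATP-sensitive channel. Abcc9, its sulfonylurea receptor subunit, was at 11.08 and 11.04 in F344 DA and at 10.48 and 9.79 in BN DA (-0.93 ± 0.20, adjusted p = 0.0343). Kcnj8, its pore subunit, was at 9.99 and 10.07 in F344 DA and at 9.24 and 9.16 in BN DA (-0.83 ± 0.18, adjusted p = 0.0368). Both kept their calls under the 3 scalings (0.0261 to 0.0411), but without either F344 DA array the adjusted p was 0.149 and 0.194 for Abcc9 and 0.136 and 0.22 for Kcnj8. It was 0.0638 and 0.0689 without either F344 AO array and 0.102 and 0.0535 in the 4 DA arrays alone, and Kcnj8 was at 0.0539 without BN DA replicate 2 and 0.0578 with array weights. Abcc9 was at 0.0575 without either BN AO array and at 0.0531 when its probe sets were averaged, with a difference of -0.69. In the aortas Abcc9 lay at 9.37 to 9.71 and Kcnj8 at 8.49 to 9.15, so F344 DA was the high group for both.

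Abcc9 and Kcnj8 are neighbours, with 0 protein-coding genes between them in the RefSeq table. Because they are adjacent and moved together, the 250 bases before the annotated start of each are shown (RefSeq, build GRCr8, minus strand), Abcc9 from chr4:177386349-177386598 and Kcnj8 from chr4:177246549-177246798, with the GC box in capitals (CCGCCC, the reverse complement of GGGCGG).

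Abcc9: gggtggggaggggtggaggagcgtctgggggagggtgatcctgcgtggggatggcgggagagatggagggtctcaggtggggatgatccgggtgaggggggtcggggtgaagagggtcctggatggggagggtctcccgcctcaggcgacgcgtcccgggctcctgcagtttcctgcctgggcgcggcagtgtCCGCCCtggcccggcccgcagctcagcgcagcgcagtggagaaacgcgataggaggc

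Kcnj8: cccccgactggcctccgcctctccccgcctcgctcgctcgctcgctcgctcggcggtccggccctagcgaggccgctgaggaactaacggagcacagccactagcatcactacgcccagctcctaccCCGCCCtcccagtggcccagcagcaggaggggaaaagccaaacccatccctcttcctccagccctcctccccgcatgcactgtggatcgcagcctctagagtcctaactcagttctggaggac

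Each window held 1 GC box and none of the other 3 motifs named above. The GC box was present in 30.5% of all windows. Promoter windows could be matched by Entrez identifier for 10853 of the 13223 members.

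Kcnmb1, the smooth muscle beta subunit of the large-conductance calcium-activated potassium channel, was at 10.12 and 10.49 in F344 DA and at 11.44 and 11.54 in BN DA (1.18 ± 0.15, adjusted p = 0.00818), and the call was kept under every scaling (0.0082 to 0.0215). Its aorta difference was 0.68 and was not called (limma adjusted p = 0.252). Kcnma1, the pore subunit, was at 7.90 and 8.0 in F344 DA and at 8.58 and 9.03 in BN DA (0.85 ± 0.17, adjusted p = 0.0276), but did not pass under the scalings (0.0552 to 0.0691). Kcna5, a voltage-gated channel studied as an oxygen-sensitive channel of the DA, was at 7.74 and 7.76 in F344 DA and 8.52 and 9.28 in BN DA (1.15 ± 0.21, adjusted p = 0.0232). It passed after repeated quantile normalization (0.0409) and fell just outside with cyclic loess (0.0504) and centring (0.0538). The aortas of both strains had Kcna5 at 9.54 to 9.63, above both groups of DA arrays. Abcc8, the sulfonylurea receptor of pancreatic and neural channels, and Kcnq5 were also called, at 0.66 (adjusted p = 0.0317) and 0.60 (adjusted p = 0.0331). The list had 4, 3 and 1 genes called higher after quantile normalization, cyclic loess and centring, and the last of these was Kcnmb1, so that both calls were lost after centring.

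Genes of other vasoactive signals gave few calls. Glp1r, the receptor of an incretin hormone, was at 7.67 and 7.80 in F344 DA and at 9.61 and 10.43 in BN DA (2.29 ± 0.23, adjusted p = 0.00398), while the aortas lay between 9.16 and 9.47. The alpha-adrenergic receptor gene Adra2a was lower, by 0.57 on the log2 scale (adjusted p = 0.0334). Without BN DA replicate 2 its difference was -0.51 and the call was lost. Glp1r and Adra2a were the 2 genes called of 42 receptors and ligands for vasoactive peptides and amines. That share, 4.76%, is near the 3.38% of all members, and the list's median was -0.02. Edn1 (endothelin) had values of 10.11 and 9.89 in F344 against 10.36 and 9.74 in BN (0.05 ± 0.19, adjusted p = 0.914). Both subunit genes of soluble guanylyl cyclase, the nitric oxide receptor, were called: Gucy1a1 was at 10.32 and 10.38 in F344 DA and 10.84 and 11.17 in BN DA (0.66 ± 0.14, adjusted p = 0.0322), and Gucy1b1 was at 9.66 and 9.65 against 10.17 and 10.37 (0.61 ± 0.12, adjusted p = 0.0284). Neither passed under the scalings (0.0525 to 0.104) or without BN DA replicate 2 (0.0594 and 0.0502). They were 2 of 21 genes of nitric oxide, natriuretic peptide and cyclic GMP signalling, with a median of 0.10, and Nos3 had a difference of 0.07. In the aorta Gucy1a1 and Gucy1b1 each had a difference of 0.55, close to that in the DA, and neither was called there.

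Contractile genes of smooth muscle had a median of -0.07 over 27 genes, with 2 called higher and 0 lower. Casq2, a calcium-binding protein of the sarcoplasmic reticulum, was at 8.53 and 8.63 in F344 DA and 9.64 and 10.62 in BN DA (1.55 ± 0.26, adjusted p = 0.0174). The aortas had Casq2 at 10.26 to 10.65. Sorbs2, an adaptor of the actin cytoskeleton, was higher by 0.52 (adjusted p = 0.0442), a call lost without either BN DA array (0.0609 and 0.0626) and under each scaling (0.0885 to 0.127). Acta2 (-0.08 ± 0.11), Myh11 (-0.01 ± 0.18) and Myocd (-0.05 ± 0.14) were not called, and neither was the L-type calcium channel gene Cacna1c (0.07 ± 0.12). Of 31 calcium channel and release genes 1 was called (3.23%, near the 3.38% of all members). It was Stim2, a sensor of stored calcium, at 0.76 (adjusted p = 0.0331), though under no scaling (0.0535 to 0.0681).

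Of 46 genes of TGF-beta, activin and BMP signalling 4 were higher and 2 lower (13%), with a median of 0.07. Gdf6, a BMP family ligand, fell from 7.82 and 7.58 to 6.83 and 6.69 (-0.94 ± 0.14, adjusted p = 0.0129), and Bmp3, Bmpr1b, Tmem100 and Tgfbr1 had differences of 0.89, 0.82, 0.73 and 0.57. Bmp5 was lower, by 0.49. Under each of the 3 scalings Bmp3, Bmpr1b and Tmem100 were the genes called higher, so the Tgfbr1 call was lost. After quantile normalization and cyclic loess Gdf6 was the 1 gene called lower, so the Bmp5 call was lost. Of 43 Wnt genes 3 were higher and 1 lower (9.3%). The secreted antagonist gene Sfrp4 fell from 8.64 and 8.38 to 7.61 and 7.23 (-1.09 ± 0.21, adjusted p = 0.0258), whereas Dkk2 (0.85), Dkk3 (0.76) and the receptor gene Fzd4 (0.70) were higher. The Dkk2 and Dkk3 calls were lost without BN DA replicate 2 (adjusted p = 0.07 and 0.0661) and under every scaling (0.0601 to 0.108), and that of Fzd4 after centring on the brighter genes (0.0677). Hoxa5 was the one of 18 Hox genes called, at 10.89 and 11.09 in F344 DA and 10.03 and 9.97 in BN DA (-0.99 ± 0.15, adjusted p = 0.0138). Among 18 Notch genes 0 were called and the median was 0.10.

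Tbx20, a transcription factor of the heart and outflow tract, was the gene called among 32 such factors (3.12%, near the 3.38% of all members). Its values were 7.32 and 7.37 in F344 DA, 8.42 and 9.87 in BN DA and 6.53 to 6.89 in the aortas (1.80 ± 0.36, adjusted p = 0.0288, and 0.056 after centring on the brighter genes). Tfap2b had a difference of -0.45 ± 0.33 and was not called (adjusted p = 0.459).

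Several of the largest differences rested on BN arrays that were far apart. Besides Tbx20 and Acan, BN DA replicate 2 was the higher for the sodium channel beta subunit gene Scn3b (6.76 and 6.78 in F344, 8.04 and 9.98 in BN), for the epithelial transcription factor gene Grhl3 (6.90 and 7.11 against 8.29 and 9.89) and for the vesicle protein gene Sv2c (7.74 and 7.92 against 9.19 and 10.59). Even the lower BN array exceeded both F344 arrays in each case. Without BN DA replicate 2 the differences were smaller, at 1.27 for Scn3b, 1.19 for Acan, 1.07 for Tbx20, 1.28 for Grhl3 and 1.36 for Sv2c. A fit without 1 BN DA array holds no spread between BN DA arrays, so it cannot test calls that rest on arrays far apart. In the limma fit of the 4 DA arrays alone none of these 5 genes was called (adjusted p = 0.0646 to 0.0892). Scn3b did not pass after cyclic loess (0.0583) or centring (0.056). Some cardiac genes were high on the same array: Tnnt2 was at 7.47 and 9.24 and Actc1 at 7.98 and 9.71 on BN DA replicates 1 and 2, against 6.91 to 7.88 on the F344 DA arrays for both genes. Over the 19 cardiac muscle markers the means were 6.81 and 6.87 in F344 DA and 7.07 and 7.18 in BN DA. Of their differences 16 were positive, with a median of 0.23, against 0.09 after centring and 0.13 in the aorta. Of these markers 1 was called (5.26%), Hspb7 at 0.91 (adjusted p = 0.0267, and 0.0536 after centring). The part of such tissue in these differences was not tested.

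Oxygen sensing genes had 3 of 24 called higher and 0 lower (12.5%), with a median of 0.03. Vegfa, the endothelial growth factor, was at 8.10 and 7.97 in F344 DA and at 8.91 and 9.44 in BN DA (1.14 ± 0.18, adjusted p = 0.015), and its call was kept under the scalings (0.0263 to 0.0364). Hif1a, the oxygen-regulated transcription factor subunit, was at 9.33 and 9.24 against 9.88 and 9.87 (0.59 ± 0.13, adjusted p = 0.0347), and its mitochondrial target Bnip3 was higher by 0.73 (adjusted p = 0.0431). Neither Hif1a nor Bnip3 passed without BN DA replicate 1 (0.0548 and 0.0672) or under the scalings (0.0584 to 0.0999). Epas1 had a difference of 0.33 ± 0.14 and was not called.

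Genes of fatty acid metabolism had 3 of 45 higher and 1 lower, with a median of 0.01. Ppargc1a, a coactivator that drives mitochondrial biogenesis, was at 6.22 and 6.43 in F344 DA and at 7.87 and 8.17 in BN DA (1.69 ± 0.17, adjusted p = 0.00315). BN DA stood alone here, since both aortas lay at 6.08 to 6.38. Cd36, a fatty acid transporter and scavenger receptor, was at 6.08 and 5.58 in F344 DA and at 7.46 and 8.26 in BN DA (2.03 ± 0.41, adjusted p = 0.0303, and 0.0508 after centring). Acaa2, a thiolase of mitochondrial beta-oxidation, was lower in BN in both vessels, by 0.79 in the DA and by 1.21 in the aorta (adjusted p = 0.0211 and 0.0159). The 69 respiratory chain genes and 68 ribosomal protein genes had 0 calls and medians of -0.01 and -0.07, but the ribosomal means differed between BN DA replicates 1 and 2, at 11.23 and 10.54, so that the median was -0.47 without replicate 1 and 0.25 without replicate 2.

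**Figure D3:**
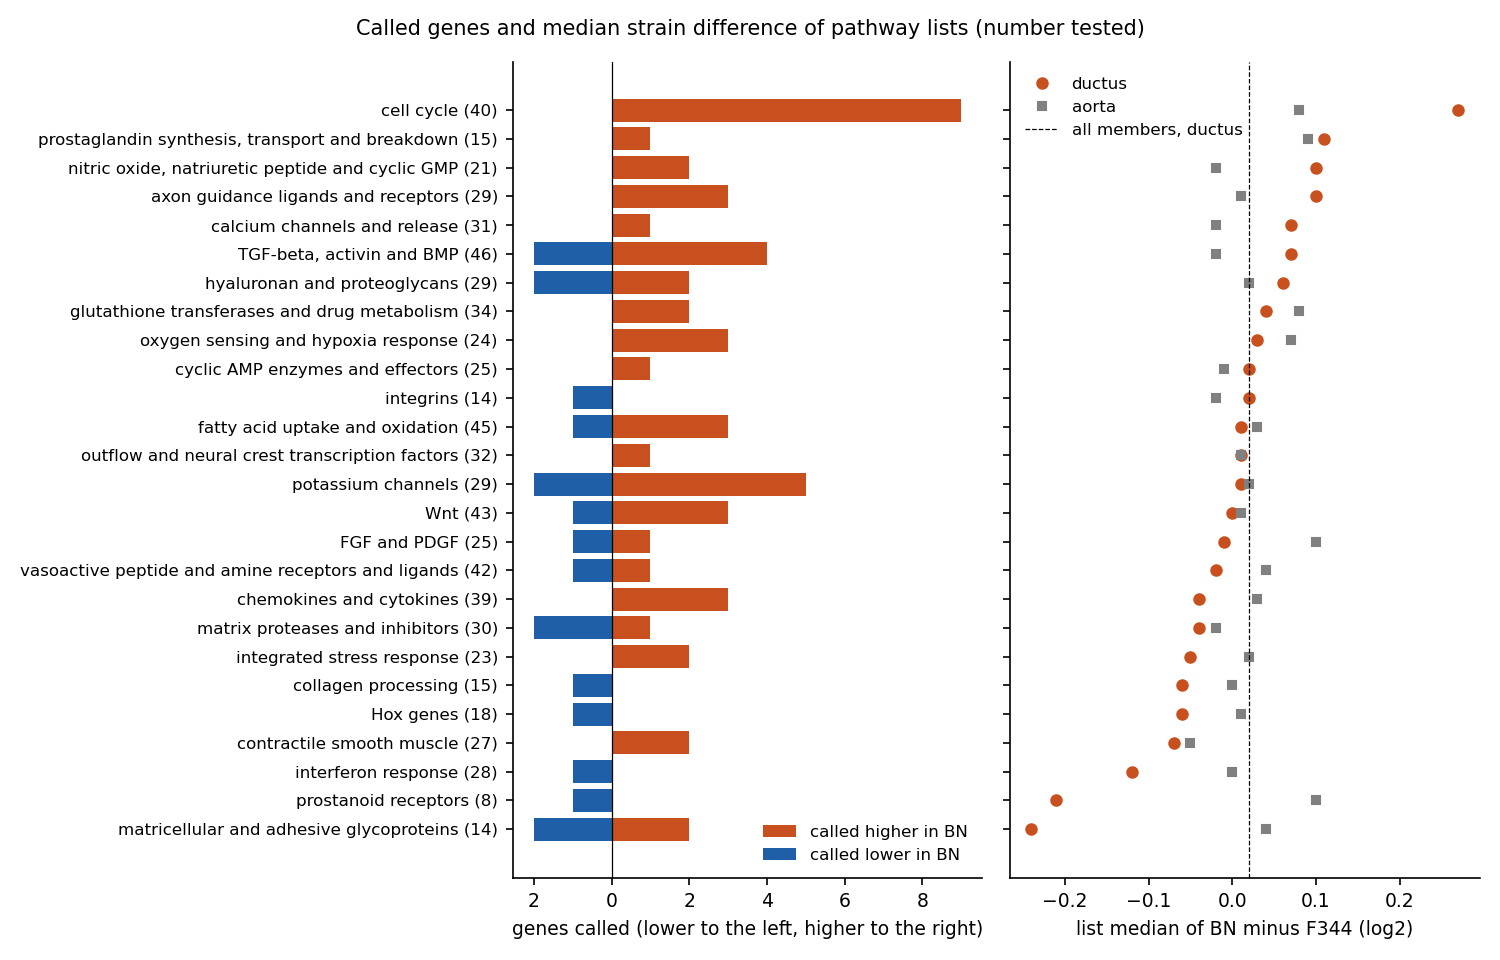
Left, the number of genes called lower (to the left) and higher (to the right) in BN DA for each pathway list with a called gene, with the number tested in brackets; right, the list median of BN minus F344 in DA (circles) and aorta (squares), with the median of all members dashed at 0.02. The cell cycle list has the highest DA median, 0.27, and matricellular glycoproteins the lowest, -0.24.

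Cell cycle genes were called in one direction: 9 of 40 were higher in BN DA (22.5%, against 3.38% of all members called), 0 were lower and 39 differences were positive, with a median of 0.27 against 0.02 over all members. Prim1, the primase subunit of DNA replication, was at 8.60 and 7.95 in F344 DA and at 9.69 and 10.15 in BN DA (1.64 ± 0.24, adjusted p = 0.0126). The aorta values of Prim1 were 8.92 and 8.60 in F344 against 9.66 and 9.89 in BN. That aorta difference of 1.02 was not called (limma adjusted p = 0.296), and the list's aorta median was 0.08. Kif20b, a kinesin of cell division, was at 6.26 and 6.12 against 7.0 and 6.94 (0.78 ± 0.12, adjusted p = 0.0139). The other called genes, Ect2, Bub1, Ccne2, Kif20a, Nusap1, Kif11 and Top2a, had differences of 0.57 to 0.88. The widely used marker genes Pcna (0.37), Cdk1 (0.40) and Ccnb1 (0.20) were not called. Under the 3 scalings 2 genes were called each time and the median was 0.13 to 0.15; without F344 DA replicate 1 or 2 the fit called 1 and 0, and without either F344 AO array 2. The list mean was 8.31 and 8.20 in F344 DA and 8.60 and 8.65 in BN DA, and the aortas lay at 8.45 to 8.63.

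Markers of lymphatic endothelium had the highest median difference of the cell type marker lists. Of 6 tested, 4 were called higher (66.7%, against 3.38% of all members) and all 6 differences were positive, with a median of 1.08 in the DA and 0.20 in the aorta. Lyve1, a hyaluronan receptor of lymphatic endothelium that some macrophages also carry, was at 8.21 and 8.19 in F344 DA and at 9.39 and 10.57 in BN DA (1.78 ± 0.39, adjusted p = 0.0368). Prox1, the transcription factor that specifies lymphatic identity, was at 5.42 and 5.73 against 6.69 and 6.59 (1.06 ± 0.20, adjusted p = 0.0259). The chemokine gene Ccl21, one of several near-identical copies whose values cannot be told apart with certainty, was at 7.19 and 6.95 against 9.61 and 8.27, and the receptor gene Flt4 at 6.91 and 7.13 against 8.18 and 7.69. Ccl21 and Flt4 were higher on BN DA replicate 1 and Lyve1 on replicate 2, so equal list means on these arrays do not show equal members. In the 4 DA arrays alone 2 members were called, and with array weights 1. The list mean was 8.24 on both BN DA arrays and lay between 6.94 and 7.67 on the other 6 arrays. Its median was 0.93 to 1.29 under the scalings, where 4, 3 and 1 members were called after quantile normalization, cyclic loess and centring; Prox1 (0.0599) and Flt4 (0.0561) were lost after centring, and Lyve1 passed under none of the scalings (0.0585 to 0.0701), nor without BN DA replicate 2 (0.0539). Without either F344 DA array 0 of the 6 passed, with medians of 1.00 and 1.17. In such bulk tissue, more cells of a type and more RNA per cell cannot be told apart.

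Blood endothelial and myeloid markers gave few calls. Of 15 blood endothelial markers 13 differences were positive and the median was 0.39, against -0.14 in the aorta; it was 0.15 without BN DA replicate 1 and 0.50, with 5 genes called, without replicate 2. Sox17 was called (0.63 ± 0.13, adjusted p = 0.0326, and 0.0624 without BN DA replicate 2), and the mean of the 15 markers was 8.41 and 8.34 in F344 DA and 8.87 and 8.63 in BN DA. Sox17 passed under none of the scalings (0.1 to 0.114). Of 16 macrophage markers 15 differences were positive and the complement gene C1qc was called, at 6.94 and 6.65 in F344 DA and 7.63 and 7.59 in BN DA (adjusted p = 0.0336, and 0.052 without BN DA replicate 1, 0.0516 after cyclic loess and 0.056 after centring). The macrophage median was 0.42 in the DA, 0.23 without BN DA replicate 2, 0.28 after centring and 0.36 in the aorta. Of 11 adventitial fibroblast markers 0 were called, and the median of 0.33 became 0.09 without BN DA replicate 2, 0.16 without F344 DA replicate 2 and 0.18 after centring.

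Thymocyte and lymphocyte markers were high on BN DA replicate 1. Their mean was 7.0 on that array and 6.15 to 6.25 on the other 7, and Rag1, the recombinase gene of developing lymphocytes, was at 8.20 there, 5.83 on BN DA replicate 2, and 5.88 and 5.87 in F344 DA. Cd4, which macrophages of the rat also express, was the one called of 15 (6.67 and 6.54 against 7.89 and 7.33, 1.01 ± 0.20, adjusted p = 0.0295). The list median of 0.31 became -0.05 without replicate 1, and without replicate 2 it was 0.69 with 8 genes called. Other immune genes were called at 2-fold or more, with the higher BN value on different arrays. Il2rg, the shared cytokine receptor chain, was at 5.38 and 5.66 in F344 against 7.45 and 6.44 in BN, higher on replicate 1. Gimap4, a lymphocyte GTPase, was at 6.43 and 6.74 against 7.80 and 8.44, higher on replicate 2. The part of lymphoid tissue in these calls was not tested.

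**Figure D4:**
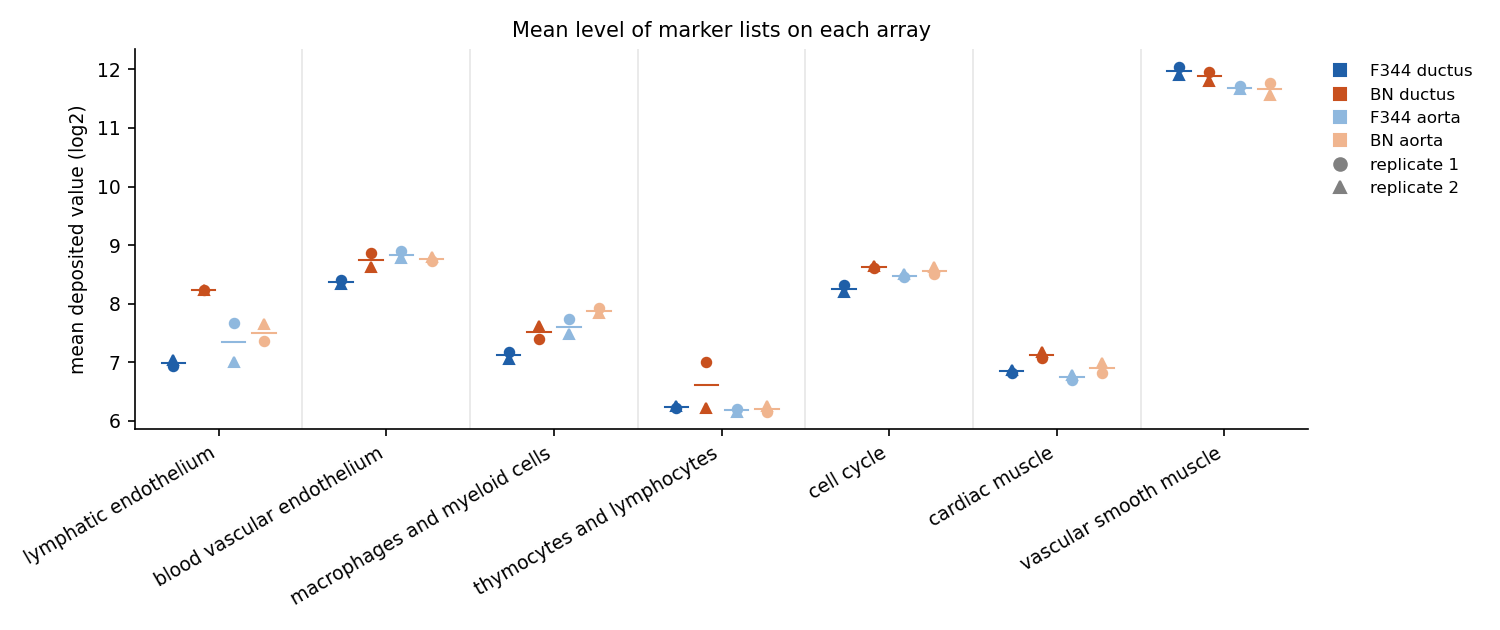
Points are the mean deposited log2 value (y) of the cell type and cell cycle lists (x) on each array, coloured by strain and vessel; bars are means of 2 arrays. Lymphatic markers are at 8.24 on both BN DA arrays, thymocyte markers are at 7.0 on BN DA replicate 1 against 6.22 on replicate 2, and smooth muscle markers lie within 11.57 to 12.05 on all arrays.

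Among the other genes with the largest differences, Zfp347, a zinc finger protein gene, was at 5.48 and 5.49 in F344 DA and 7.51 and 8.01 in BN DA (2.27 ± 0.17, adjusted p = 0.00144). Trpm8, a cation channel opened by cold and menthol, was at 5.78 and 6.17 against 7.72 and 8.47 (2.12 ± 0.23, adjusted p = 0.0058). Htra4, a secreted serine protease, and Tnfrsf19, a receptor of the tumour necrosis factor family, were higher by 1.76 ± 0.20 and 1.75 ± 0.20, and Lcn2 (lipocalin), an iron-siderophore binding protein of neutrophils and inflamed tissue, by 1.76 ± 0.25. For these 5 genes the BN aorta was also higher than the F344 aorta, by 0.97 to 2.24, and of these aorta differences the fit called that of Trpm8. Gstm1, a glutathione transferase from a family of similar copies, was higher by 1.36 ± 0.20 (adjusted p = 0.0139).

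Genes lower in BN included several transporters, channels and enzymes. Mfsd2a, a transporter of lipids carrying docosahexaenoic acid, was at 8.61 and 8.47 in F344 DA and 7.43 and 7.15 in BN DA (-1.25 ± 0.14, adjusted p = 0.00591). Nalcn, a sodium leak channel, was at 8.52 and 8.49 against 7.55 and 7.13 (-1.16 ± 0.15, adjusted p = 0.00845), and the receptor tyrosine kinase gene Alk at 7.81 and 8.05 against 6.52 and 6.99 (-1.17 ± 0.18, adjusted p = 0.0158). The aortas of both strains had Nalcn at 7.90 to 8.01, between the DA groups, and Alk at 6.61 to 6.99, near the BN DA values. Enpp3, an ectonucleotidase, Lbp, the lipopolysaccharide-binding protein, Smpd3, a sphingomyelinase, Ifi27, an interferon-induced gene, and the tight junction gene Cldn11 had differences of -1.20, -1.18, -1.21, -1.13 and -1.08; the Smpd3 call was lost without BN DA replicate 2 (adjusted p = 0.0624). Spetex2el3, from a multi-copy family whose probe sets can bind related transcripts, was at 10.41 and 10.22 against 8.94 and 9.50.

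The strain difference was measured in the aorta as well, on 4 other arrays. There limma called 22 of 13223 genes (0.166%), 11 higher and 11 lower in BN, and 684 had an unadjusted p under 0.05. Of the 22, 17 were called in the DA too, 10 higher and 7 lower in both, and 0 in opposite directions. The 5 called in the aorta and not in the DA were Rxfp1 (1.40 in the aorta), Pln (-0.91), Tppp3 (-1.0), Npr3 (-1.18) and Igfbp6 (-1.39), of which Rxfp1 is a relaxin receptor gene, Pln that of the calcium pump regulator phospholamban and Npr3 that of a natriuretic peptide clearance receptor. The count was 0 without F344 AO replicate 1 or BN AO replicate 1, 1 without the other array of either group, 8 when an F344 DA array was dropped and 66 when a BN DA array was.

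Genes that differed in both vessels included Gfra1, the co-receptor of glial cell line-derived neurotrophic factor, which was at 7.55 and 7.52 in F344 DA, 8.97 and 9.38 in BN DA, 8.05 and 7.73 in F344 aorta and 9.73 and 9.97 in BN aorta. The DNA ligase gene Lig4, Serinc2, Crispld1, the neuropeptide gene Gal (galanin), the cytokine gene Il17b and Eqtn were higher in both, with DA differences of 1.15 to 1.71 and aorta differences of 0.96 to 1.57; Slitrk5 and the glycogen phosphorylase gene Pygl were higher by 0.82 and 0.54 in the DA and by 1.27 and 1.24 in the aorta. Beside Itga4 and Acaa2, the genes lower in both were Vps52, Echdc2, Scand1, Shisa3 and Rtn4ip1, by 0.58 to 0.97 in the DA and by 0.90 to 1.63 in the aorta on the log2 scale.

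Of the 352 genes higher in BN DA, 293 (83.2%) were also higher in BN aorta, and of the 95 lower genes 78 (82.1%) were lower there, where 50.5% of all members had a positive aorta difference. The aorta arrays of the strains did not overlap for 212 of the 352 (60.2%, against 18.9% of all members) and for 58 of the 95 (61.1%, against 17.3%). Their aorta differences had medians of 0.18 and -0.23. Because the genes were chosen by their DA difference, larger medians in the DA follow from that choice and are no comparison of the vessels. Across members, which are not independent replicates, the DA and aorta differences had a Pearson correlation of 0.39 and a Spearman correlation of 0.30; the contrasts share no array but share probe sets, normalization and the variance estimate of each gene.

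**Figure D5:**
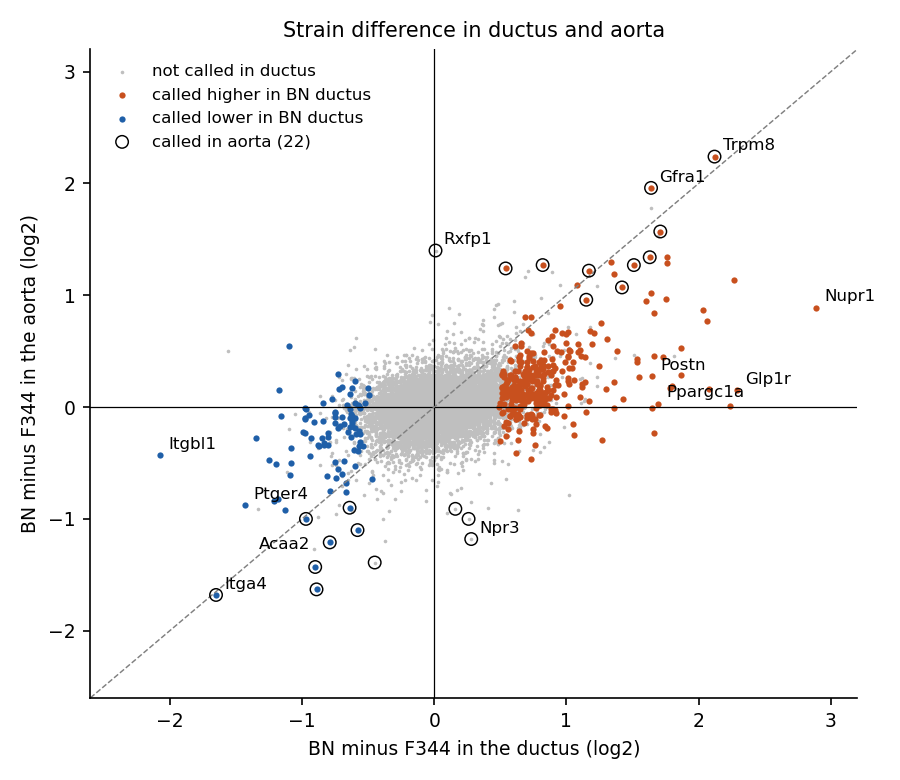
Each point is 1 of 13223 genes, placed by its BN minus F344 difference in the DA (x, log2) and in the aorta (y, log2); coloured points are called in the DA, circled points are the 22 called in the aorta, and the dashed line marks equal differences. Trpm8, Gfra1 and Itga4 lie near that line, and Nupr1, Glp1r, Postn and Itgbl1 lie closer to the DA axis.

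Whether a strain difference depended on the vessel was tested with the interaction, and limma called 0 genes (smallest adjusted p = 0.107), while 1009 had an unadjusted p under 0.05. Without BN DA replicate 1 or 2 the interaction called 47 and 32 genes. Nupr1 had an interaction of 1.99 ± 0.28, Postn one of 1.37 ± 0.18 and Ppargc1a one of 1.66 ± 0.23, each with an adjusted p of 0.107. Tmem100, a gene of arterial endothelium, was at 6.33 and 6.35 in F344 DA and at 7.07 on both BN DA arrays, but at 7.72 and 7.57 in F344 aorta and 7.16 and 7.21 in BN aorta, so its strain difference had opposite signs in the vessels (0.73 and -0.46, interaction adjusted p = 0.107). The guidance ligand gene Sema3c had differences of 0.62 in the DA (adjusted p = 0.0288, and 0.057 without BN DA replicate 1) and -0.41 in the aorta. No vessel-dependent strain difference passed the threshold for any of these genes.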

How the data were processed

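The deposited table holds log2 values for 29215 probe sets on 8 arrays. Per the submitters' processing notes the authors used RMA (background correction, normalization across arrays, probe summary). Its version, settings and build: not given in the sources used here. Platform annotation of 2016 named 1 symbol for 15310 probe sets; 13582 it does not list are unnamed here. With limma 3.58.1 (R 4.3.3), 4 group means were estimated from all 8 arrays and moderated by eBayes (4 residual and 5.2 prior degrees of freedom), two-sided, with Benjamini-Hochberg adjustment over 14506 genes. The number of arrays limits the precision. The members, the 55 gene lists (1260 genes tested), the 35 ductus genes (33 tested) and the tests were chosen with earlier results of these data known. Named are the 15 largest called differences of at least 2-fold in each direction with arrays apart and the brighter group above 7.48, up to 4 called genes per list, and the ductus genes; others were chosen after their values were seen. The procedure was tested on simulated data. Alternatives were the scalings, filters, weights, array subsets and block of the closing section.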

Additional observations from a re-analysis of the deposited data

How the results depend on the processing

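Of 86 named genes called in the DA, 0 changed sign under any of 19 alternatives, and 6 (Nupr1, Postn, Zfp347, Ppargc1a, Itgbl1 and Itga4) kept their call under all of them. The count of 447 became 67 in a fit of the 4 DA arrays alone, 220 with array weights and 278 after centring on brighter genes, and ranged from 13 to 807 over the fits that leave out 1 array. It stayed within 1.5 times with a mean-variance trend, robust moderation, repeated quantile normalization, cyclic loess, averaged probe sets, without dim genes and without receptor genes. With the replicate number as a block, 1084 genes were called in the DA and 2 by the interaction; deviations of same-numbered arrays correlated at 0.55 for BN DA with BN aorta and at -0.01 to 0.36 for other pairs of groups, and in erythroid and ribosomal protein genes replicate 1 had the higher mean in all 4 groups. The labels do not say that equal numbers mark a shared litter or day, so the pairing was not used. The aorta count of 22 became 54 with its 4 arrays alone and 53 with array weights, and ranged from 0 to 66 over the fits that leave out 1 array; the interaction count of 0 ranged from 0 to 47 there. The interaction could not be fitted to the arrays of a single vessel. The cause of these changes was not tested.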

Other observations

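Some genes outside the lists were also called higher in BN DA. Rxfp2, a receptor of the relaxin family, was at 9.15 and 9.27 in F344 DA and at 10.16 and 10.30 in BN DA (1.02 ± 0.13 SE, limma adjusted p = 0.00844), with an aorta difference of 0.21. Corin, the protease that activates atrial natriuretic peptide, was at 8.61 and 8.75 against 9.43 and 10.47 (1.27 ± 0.27, adjusted p = 0.0334), with an aorta difference of -0.29. Dlk1, a Notch pathway ligand of fetal mesenchyme, was at 9.38 and 9.13 against 10.53 and 11.45 (1.73 ± 0.38, adjusted p = 0.0357). Sphkap, an anchor protein for protein kinase A, was at 7.19 and 7.07 against 8.70 and 8.89 in the DA (1.66 ± 0.15, adjusted p = 0.00232), and its aorta difference was -0.23. Tlr3, a sensor of double-stranded RNA, was higher by 1.10 ± 0.13 (adjusted p = 0.00634). These genes were chosen after their values were seen, and how far their calls depend on the alternatives is not given here. For Corin and Dlk1 the BN DA arrays were far apart, with the higher value on replicate 2, where Tnnt2 and Actc1 were also high.

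Among lists with few or no calls, 8 of 36 immediate early genes had a positive difference and 0 were called, with medians of -0.14 in the DA and -0.17 in the aorta. The absence of calls depended on the scaling. After quantile normalization, cyclic loess and centring, 3, 3 and 5 of these genes were called lower in BN DA. Erythroid markers had 0 of 14 called and a mean of 8.06 and 7.39 on the F344 DA arrays and 8.25 and 7.38 on the BN DA arrays. In the aorta it was 7.54 and 7.06 in F344 and 7.83 and 7.34 in BN, so replicate 1 was the higher in all 4 groups.

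Of 39 chemokine and cytokine genes 3 were higher, Ccl21, Cxcl13 (0.82, adjusted p = 0.0208) and Ccl2 (0.61, adjusted p = 0.0482), with a median of -0.04. Of 25 FGF and PDGF genes Fgf2 was higher (0.76) and Fgf14 lower (-0.71), with a median of -0.01, and of 29 axon guidance genes Epha3, Efna5 and Sema3c were higher, with a median of 0.10. Gstm1 and Ephx1 were the 2 called of 34 genes of glutathione transfer and drug metabolism, and Ifi27 the one called of 28 interferon response genes, whose median was -0.12. Krt8, a keratin gene on both the epithelial list of 17 genes and the mesothelial list of 6, was at 6.33 and 6.51 in F344 DA against 7.20 and 7.19 in BN DA (0.77 ± 0.16, adjusted p = 0.0336), a call lost after cyclic loess (0.0526), after centring (0.068), with array weights (0.0588) and when its probe sets were averaged (0.53, adjusted p = 0.0664). Without BN DA replicate 2 the calls of Ccl2 (0.0666), Fgf2 (0.0666), Efna5 (0.0643) and Ephx1 (0.0947) were lost, and without replicate 1 those of Ccl2 (0.0622) and Fgf14 (0.0961). Under the scalings Efna5 (0.0798 to 0.0966), Ephx1 (0.0919 to 0.104) and Fgf2 (0.0507 to 0.0976) passed in none, Fgf14 failed after quantile normalization (0.0679) and cyclic loess (0.0855), and Cxcl13 (0.0574), Ccl2 (0.14) and Sema3c (0.0701) failed after centring. The lists of growth hormone and IGF, retinoic acid, antioxidant, RGS, class I and class II MHC genes and those of mast cell, platelet, skeletal muscle, fat, neuron and Schwann cell markers had 0 calls, with medians of -0.18 to 0.10. Under each scaling 2 growth hormone and IGF genes and 1 retinoic acid gene were called lower. Quantile normalization also gave higher calls for 2 retinoic acid genes and for 1 gene each of the RGS, class I MHC and fat lists. The class I and class II MHC means were 7.21 and 7.32 on BN DA replicate 1 and 6.92 and 7.0 on replicate 2.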
